A study of Rattus norvegicus with 20 samples.

Results

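The effect of vanadyl sulfate on gene expression was compared between diabetic and normal rat muscle, as the treatment effect in diabetic rats minus the treatment effect in normal rats (the interaction). All 20 samples of the study entered this contrast, and 8740 of the 8799 probe sets, with the 59 control probe sets set aside. The samples were rear-leg skeletal muscle of rats (Rattus norvegicus) in 4 groups of 5: untreated normal rats, untreated diabetic rats, diabetic rats given vanadyl sulfate (treated diabetic) and normal rats given vanadyl sulfate (treated normal). Poly(A) RNA of each sample was labelled with biotin and hybridised to 1 Affymetrix array. The sources used here do not give how diabetes was produced, the strain, age and sex of the rats, which muscle was taken, or how much vanadyl sulfate was given and for how long. The labels do not say that the replicates of a group were separate animals, so p-values measure the spread between these samples.

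Vanadyl sulfate is a vanadium salt that lowers blood glucose in diabetic rodents. Vanadium compounds act in part by inhibiting protein tyrosine phosphatases, which switch off the insulin receptor and its substrates. Skeletal muscle is the main site of insulin-stimulated glucose uptake, and in diabetes it turns from glucose to fatty acids as fuel and can lose protein. An interaction differs from 0 when treatment moves a gene in one kind of rat and not in the other, or moves it in opposite directions. It also does so when treatment moves the gene in the same direction by different amounts. The same number is also the difference between treated diabetic and treated normal muscle minus the difference between diabetic and normal muscle, so the contrast cannot say which of the 4 groups stands apart, and the level in each group is given with it.

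Levels are log2(signal + 16), and every difference is in log2 units of that scale, which understates changes of dim probe sets. A negative interaction means that the treatment effect was lower in diabetic than in normal muscle. Each interaction is given with its SE, and its adjusted p is from limma with Benjamini-Hochberg adjustment over the 8740 probe sets. A probe set is called dim on an array where it lay under that array's own 40th percentile of signal.

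The arrays had median signals between 377.3 and 647.8 and correlations with each other between 0.683 and 0.968. The highest correlation with another array was 0.855 for treated diabetic replicate 5 and at least 0.921 for every other array. Of 14 skeletal muscle markers measured, 13 lay above the 40th percentile in all 20 arrays, and 0 were dim in all. RNA quality, read from control probe sets as 3' over 5' signal (log2), was uneven within groups. For Gapdh the ratio averaged 1.20 ± 1.56 in normal, 0.19 ± 0.29 in treated normal, 0.61 ± 0.39 in diabetic and 1.39 ± 1.50 in treated diabetic muscle (SD, n = 5 each). Its interaction was 1.79 (exact permutation test over 63504 assignments, two-sided, p = 0.1005, adjusted over 2 ratios p = 0.201). For beta-actin the interaction was 0.43 (exact permutation p = 0.534, adjusted p = 0.534). The Gapdh ratio was above 2 in 3 arrays, normal replicates 1 and 3 and treated diabetic replicate 1, which lie on the same side of the contrast and are called below the 3 arrays of high ratio. Where the interaction of a named gene or the median of a gene list moved by over 1.5 times without these 3 arrays, both values are given.

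The measured treatment effects in the 2 kinds of rat showed almost no relation across the array. Over 8740 probe sets the effect in diabetic muscle and the effect in normal muscle, which share no array, had a Pearson r of -0.025 and a Spearman rho of -0.031, and 53.3% of probe sets had the same sign in both. Over the 6027 probe sets that lay above the 40th percentile in at least 5 arrays, r was -0.058 and 49.96% had the same sign. These are descriptions across probe sets, which are not independent of each other. The effects had an SD across probe sets of 0.63 in diabetic and 0.48 in normal muscle, where the SE of an interaction had a median of 0.56. The plot of each probe set's effect in the 2 kinds of rat shows a round cloud with no slope along the line of equal effects.

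**Figure D1:**
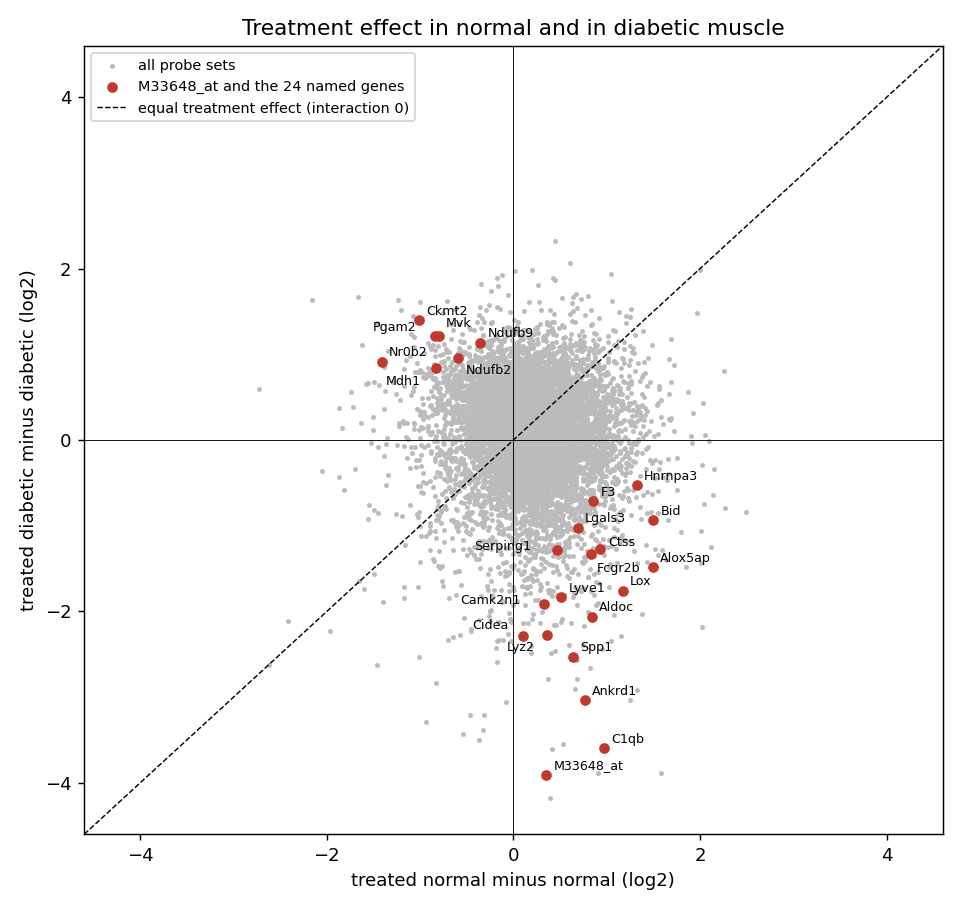
Treatment effect of each of 8740 probe sets in normal muscle (horizontal axis, log2) against that in diabetic muscle (vertical axis, log2); grey points are all probe sets, red points M33648_at and the 24 named genes, and the dashed line marks equal effects. The cloud has no slope (Pearson r = -0.025), 17 of the 24 genes lie at the lower right, where treatment lowered the level in diabetic and raised it in normal muscle, and 7 lie at the upper left.

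By limma, 1 of 8740 probe sets passed an adjusted p of 0.05 for the interaction (0.0114%). At an unadjusted p under 0.05 there were 894, of which 557 (62.3%) were lower and 337 higher. That split depended on the scaling: quantile normalization moved the median interaction of all probe sets from -0.09 to 0.05 and gave 900 with 47.2% lower. In the fit restricted to the 6027 brighter probe sets, 10 passed (0.166%), all with a negative interaction. That filter asks for 5 arrays, so a probe set can enter through 1 group alone. M33648_at, which is among the 10, entered through the 5 untreated diabetic arrays only, so its pass there is no separate support.

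The probe set past the test was M33648_at, which the annotation tables do not name. Its log2 signal was 5.75, 5.63, 6.33, 6.80 and 6.77 in the 5 normal arrays and 6.03, 6.82, 7.46, 6.43 and 6.32 in the treated normal arrays. In diabetic muscle it was 10.65, 9.05, 10.23, 9.77 and 11.74 untreated and 6.73, 6.002, 6.33, 6.11 and 6.73 with treatment. The 5 untreated diabetic arrays stood above all 15 others, and the other 3 groups overlapped. The treatment effect was -3.91 ± 0.41 in diabetic and 0.35 ± 0.41 in normal muscle, and the interaction was -4.26 ± 0.57 (adjusted p = 0.00296). On this scale untreated diabetic muscle was 15-fold above treated diabetic muscle. M33648_at was dim in all 15 arrays of the other 3 groups, so the size rests on their background level, and with a pseudocount 16 times as large the interaction was -2.33. It passed in 32 of 33 alternative settings. Without the 3 arrays of high Gapdh ratio its value was -4.20 with an adjusted p of 0.0613, and limma then called 0 probe sets, with 842 at an unadjusted p under 0.05.

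The 24 named genes with the smallest interaction p did not pass over all probe sets (adjusted p from 0.0555 to 0.184), and they are given as values. They were chosen on the interaction itself, so their pattern describes what lay at the top of the ranking and is not a test. Of the 24, 17 had a negative and 7 a positive interaction. All 24 had treatment effects of opposite sign in diabetic and normal muscle, against 46.7% of all probe sets. In 19 of the 24 the larger effect was that in diabetic muscle. The untreated diabetic mean was the highest of the 4 group means in 13 genes and the lowest in 5. Diabetic and treated diabetic arrays did not overlap in 13 of the 24, against 3.59% of all probe sets, and normal and treated normal arrays did not overlap in 4, against 1.62%.

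Which genes passed turned on single arrays. Without diabetic replicate 5, limma called 23 probe sets, among them Fcgr2b, Alox5ap, Lyve1, Ankrd1, Cidea, Lox, Nr0b2, Spp1 and Lyz2. Without treated diabetic replicate 2 it called 6, among them Alox5ap, Lyve1, Lox and C1qb. It called 6 also without treated diabetic replicate 4, with Ankrd1, and without treated diabetic replicate 5, with Fcgr2b. Lyve1 was the second of 2 without normal replicate 3, and the unnamed rc_AI176456_at the second of 2 without treated normal replicate 5. The 24 genes kept the sign of their interaction in all 33 alternative settings, and 18 of them passed in at least 1.

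Of the 17 genes with a negative interaction, 5 belong to the list of immune cell markers described with them: Fcgr2b, Lgals3, C1qb, Ctss and Lyz2. Fcgr2b (X73371_at), the inhibitory receptor for the Fc part of IgG, measured 8.20, 7.65, 8.04, 7.99 and 8.22 in normal and 9.03, 8.66, 9.11, 8.65 and 8.82 in treated normal muscle. It measured 10.42, 9.05, 10.26, 9.46 and 9.18 in diabetic and 8.30, 7.82, 8.39, 8.30 and 8.95 in treated diabetic muscle. Treated normal arrays lay above all normal arrays, and treated diabetic arrays lay below all diabetic arrays. The effects were 0.84 ± 0.28 in normal and -1.32 ± 0.28 in diabetic muscle, and the interaction was -2.16 ± 0.40 (adjusted p = 0.0555). Among the brighter probe sets alone its adjusted p in limma was 0.0315. Fcgr2b was not dim in all 5 diabetic and all 5 treated normal arrays, but in only 1 normal and 3 treated diabetic arrays. The size of its effects therefore rests in part on background levels, and with a pseudocount 16 times as large its interaction was -1.40.

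Alox5ap (X52196cds_at), the membrane protein that hands arachidonic acid to 5-lipoxygenase for leukotriene synthesis, had effects of the same size in opposite directions. Its level was 8.98, 9.79, 7.50, 9.76 and 8.24 in normal against 9.69, 10.54, 10.55, 10.32 and 10.64 in treated normal arrays, and 10.16, 10.24, 10.19, 10.53 and 9.93 in diabetic against 8.41, 9.83, 8.86, 8.46 and 8.07 in treated diabetic arrays. Treated normal and untreated diabetic muscle were high, and the diabetic pair did not overlap. The effects were 1.49 ± 0.40 and -1.49 ± 0.40 (interaction -2.98 ± 0.56, adjusted p = 0.0555). A further probe set of Alox5ap, rc_AI104781_at, gave an interaction of -0.68 ± 0.74.

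C1qb (X71127_g_at), a chain of the complement component C1q that tissue macrophages make, had the most negative interaction of the 24, -4.57 ± 0.99 (adjusted p = 0.0922). Its level was 12.45, 11.59, 12.19, 11.60 and 11.40 in diabetic and 7.64, 10.90, 10.16, 6.56 and 5.98 in treated diabetic arrays, with 3 treated arrays under 8 and 2 above 10. The 3 under 8 were dim, so the size of the effect rests in part on background levels. Normal arrays were at 8.87, 10.63, 9.27, 9.91 and 9.85 and treated normal arrays at 9.66, 10.42, 11.28, 10.90 and 11.16, and these overlapped. A second C1qb probe set, X71127_at, chosen after its values were seen, gave -2.48 ± 0.61, with effects of -1.76 in diabetic and 0.72 in normal muscle. Serping1 (rc_AA800318_at), the inhibitor of the first complement component, had an interaction of -1.75 ± 0.37 (adjusted p = 0.0798), with effects of -1.28 and 0.47.

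Lyve1 (rc_AI639246_at), a hyaluronan receptor of lymphatic endothelium and of some tissue macrophages, measured 8.35, 8.32, 9.64, 8.46 and 8.29 in normal and 9.05, 9.04, 9.30, 8.90 and 9.35 in treated normal arrays. In diabetic arrays it was 11.27, 9.84, 10.55, 9.84 and 10.15, above all 5 treated diabetic arrays, which were at 8.48, 9.26, 8.62, 8.26 and 7.87. The effects were -1.83 in diabetic and 0.52 in normal muscle (interaction -2.35 ± 0.46, adjusted p = 0.0694). Normal replicate 3 stood above the other normal arrays, and without it the interaction of Lyve1 was -2.61.

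The other 3 of these markers also had their highest mean in untreated diabetic muscle. The galectin Lgals3 had effects of -1.02 in diabetic and 0.69 in normal muscle, the lysosomal protease Ctss (cathepsin S) -1.27 and 0.92, and the lysozyme Lyz2 -2.28 and 0.36. Their interactions were -1.71 ± 0.37, -2.20 ± 0.51 and -2.63 ± 0.64 (adjusted p = 0.0922, 0.144 and 0.184). Spp1, the secreted matrix protein osteopontin, had effects of -2.53 and 0.64 (interaction -3.17 ± 0.73, adjusted p = 0.138), and it was dim in 4 of 5 normal and 4 of 5 treated normal arrays. F3, the tissue factor that starts blood clotting, differed in form: its larger effect was that in normal muscle, 0.85 against -0.71 in diabetic muscle, and its diabetic and treated diabetic arrays overlapped (interaction -1.56 ± 0.38, adjusted p = 0.184).

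Immune cell markers were read as a list of 33 measured genes, which holds Fcgr2b, Lgals3, C1qb, Ctss and Lyz2. The median interaction was -1.04, against -0.06 over all 4736 genes, with median effects of -0.82 in diabetic and 0.36 in normal muscle. In 27 of the 33 the interaction was below 0, and in 20 treatment went with a lower level in diabetic and a higher level in normal muscle. Over all 4736 genes these counts were 2565 and 1251. At an unadjusted p under 0.05, 12 were lower and 0 higher, where 6.12% of all genes were lower and 4.24% higher. No member passed over all probe sets. The mean of the list's genes on each array, relative to the normal mean, was 0.00 ± 0.20 in normal, 0.25 ± 0.19 in treated normal, 0.91 ± 0.70 in diabetic and 0.15 ± 0.09 in treated diabetic muscle (SD, n = 5 each).

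Diabetic replicates 1 and 3 carried much of that mean: they scored 1.67 and 1.68, and diabetic replicates 2, 4 and 5 scored 0.46, 0.44 and 0.31. These 2 arrays also had the highest beta-actin ratios of their group, 2.30 and 2.52 against 0.93 to 1.97. With both 3'/5' ratios as covariates the list's median interaction was -1.16, with 14 members lower and 0 higher, where 5.55% of all genes were lower. Without the 2 arrays the list's median interaction was -0.57, with 6 members lower and 0 higher at an unadjusted p under 0.05, where 4.58% of all genes were lower. The summed signal of the 33 markers ran from 30934 to 40515 in normal, from 39339 to 55486 in treated normal, from 56954 to 167165 in diabetic and from 34870 to 49437 in treated diabetic muscle, and 3 of the 33 were dim in all 20 arrays. In bulk muscle, fewer cells of a type and less RNA per cell cannot be told apart.

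**Figure D2:**
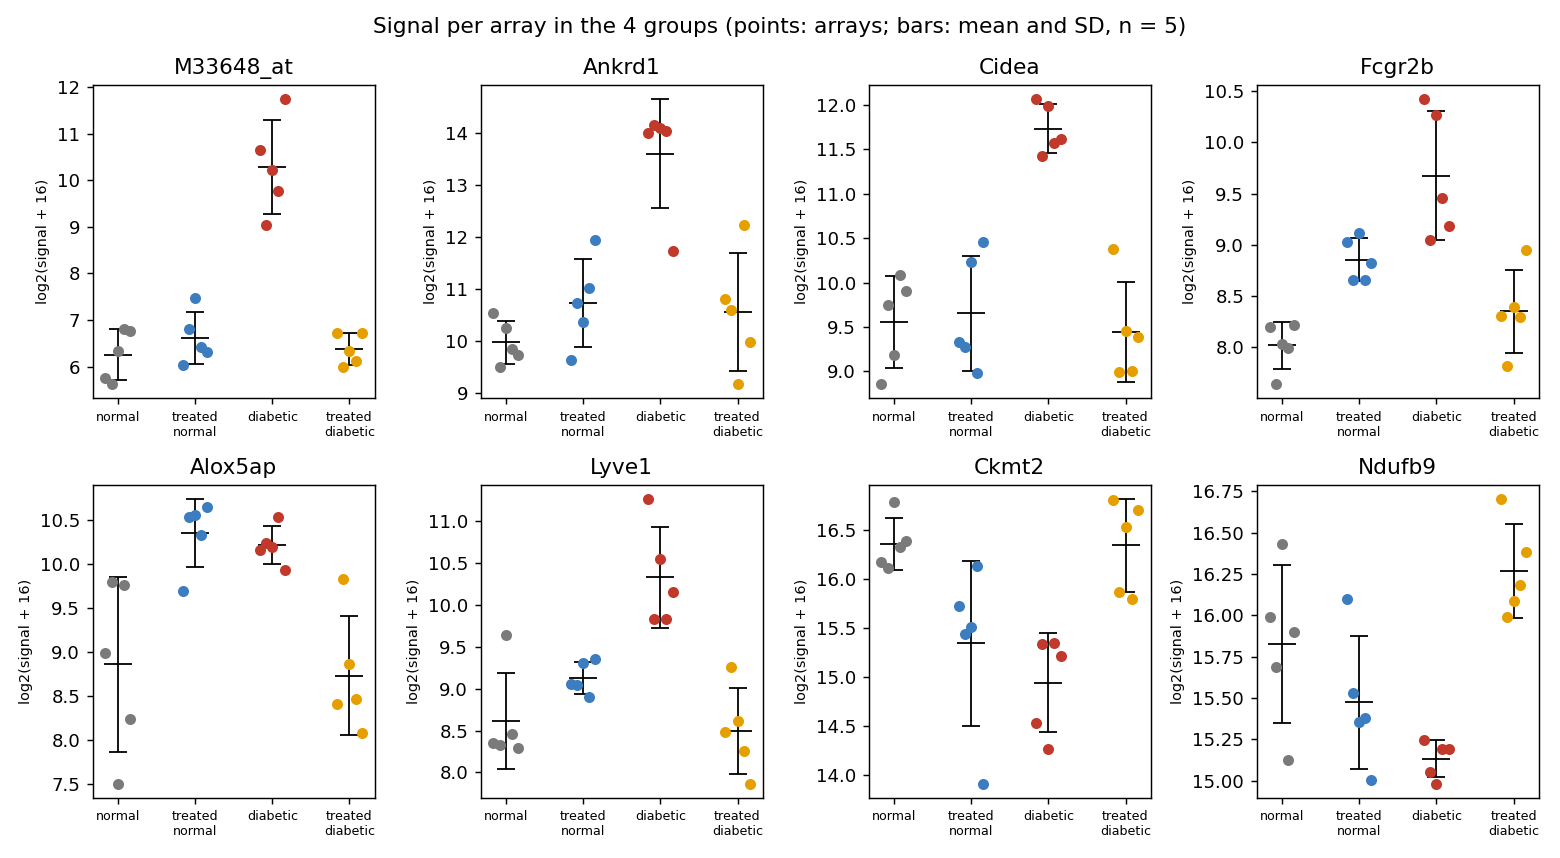
Level of M33648_at and 7 named genes on each of the 20 arrays, log2(signal + 16) on the vertical axis, with the 4 groups along the horizontal axis; points are arrays and bars the mean and SD (n = 5). M33648_at, Ankrd1, Cidea, Fcgr2b and Lyve1 have their highest group mean in untreated diabetic muscle, Ckmt2 and Ndufb9 have their lowest mean there, and Alox5ap is high in both diabetic and treated normal muscle.

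Ankrd1 was the 1 gene of the 24 in the list for stretch and damage of muscle. Ankrd1 (U50736_s_at), the ankyrin repeat protein that muscle makes under stretch, was at 13.99, 14.15, 14.08, 14.02 and 11.73 in diabetic and 10.82, 10.60, 9.19, 12.23 and 9.98 in treated diabetic arrays. It was at 10.54, 9.50, 10.25, 9.86 and 9.73 in normal and 9.65, 10.73, 10.37, 11.02 and 11.94 in treated normal arrays. In diabetic muscle 4 arrays were near 14 and replicate 5 at 11.73, inside the range of the treated diabetic arrays. The effects were -3.03 ± 0.53 in diabetic and 0.76 ± 0.53 in normal muscle, and the interaction was -3.80 ± 0.75 (adjusted p = 0.0694). Without diabetic replicate 5 the interaction of Ankrd1 was -4.26.

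Among the 19 measured genes of the stretch and damage list, 8 were lower and 0 higher at an unadjusted p under 0.05, where 6.12% of all genes were lower, with a median interaction of -0.87. Median effects were -0.39 in diabetic and 0.01 in normal muscle, so on the median the treatment effect lay in diabetic muscle. Fhl2, a LIM-domain protein of striated muscle, had an interaction of -2.35 ± 0.80 (effects -3.29 and -0.94), and Myh3, the embryonic myosin heavy chain that regenerating fibres use, one of -2.17 ± 0.74 (effects -2.34 and -0.17). Csrp3, the muscle LIM protein, had an interaction of -1.57 ± 0.75. These 3 had an adjusted p between 0.277 and 0.482. Fhl2 was dim in all 5 treated diabetic arrays, and not dim in 4 diabetic, 1 normal and 1 treated normal array. The size of its effects therefore rests on background levels, and with a pseudocount 16 times as large its interaction was -1.43. The list's score averaged 0.59 ± 0.42 in diabetic, -0.31 ± 0.30 in treated diabetic, 0.00 ± 0.22 in normal and -0.05 ± 0.10 in treated normal muscle (SD, n = 5 each). Treated diabetic replicate 5, at -0.84, lay apart, and without it the list's median interaction was -0.37. Without diabetic replicates 1 and 3 the list had 4 members lower and 0 higher, with a median of -0.73, where 4.58% of all genes were lower. Leaving out the 3 arrays of high ratio gave -0.57 with 5 lower, where 6.21% of all genes were lower.

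Lox (S66184_s_at), which cross-links collagen and elastin, measured 12.90, 10.82, 12.53, 11.41 and 11.05 in diabetic and 9.41, 10.88, 10.17, 10.20 and 9.25 in treated diabetic muscle. The normal arrays were at 9.27, 8.31, 9.18, 8.55 and 7.83 and the treated normal arrays at 10.10, 9.71, 10.13, 10.01 and 9.05. Diabetic muscle had the highest mean, normal muscle the lowest, and the means of both treated groups lay between them. The interaction was -2.93 ± 0.59 (adjusted p = 0.0694), with effects of -1.76 and 1.17. The other 3 Lox probe sets gave -2.37 ± 1.11, -1.52 ± 0.40 and -1.32 ± 0.41. Thbs4, a thrombospondin of the tendon and muscle matrix, had an interaction of -2.31 ± 0.63 (adjusted p = 0.191), with effects of -2.01 and 0.31. The extracellular matrix list as a whole had a median of -0.13 over 35 genes, with 5 lower and 3 higher at an unadjusted p under 0.05, where 6.12% of all genes were lower and 4.24% higher.

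Cidea (rc_AA800243_at), a lipid droplet protein of adipocytes that promotes fat storage, separated the diabetic pair fully. Diabetic arrays were at 12.06, 11.43, 11.99, 11.57 and 11.61 and treated diabetic arrays at 10.38, 8.997, 9.45, 9.0 and 9.39. Normal arrays were at 8.86, 9.75, 9.19, 10.09 and 9.90 and treated normal arrays at 9.33, 9.28, 10.23, 8.98 and 10.46. Treatment went with a 4.88-fold lower signal in diabetic muscle (-2.29 ± 0.34), to the level of the other groups, and with a difference of 0.10 ± 0.34 in normal muscle (interaction -2.39 ± 0.48, adjusted p = 0.0694). The 10 measured adipocyte markers had a median interaction of -0.69, with Cidea alone past an unadjusted p of 0.05, where 6.12% of all genes were lower. Fabp4, the fatty acid carrier of adipocytes, had an interaction of -1.13 ± 0.62 (-1.71 without the 3 arrays of high Gapdh ratio) and the adipocyte transcription factor Pparg one of -0.72 ± 0.53. The summed signal of these markers was 33295 to 54205 in diabetic, 24524 to 36480 in treated diabetic, 16515 to 27834 in normal and 20646 to 26007 in treated normal muscle.

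Of the 7 genes with a positive interaction, Ndufb9 is in the oxidative phosphorylation list, Mdh1 in the tricarboxylic acid cycle list, Pgam2 in the glycolysis list and Mvk in the lipid and cholesterol synthesis list, and Ckmt2, Ndufb2 and Nr0b2 are in none. Ckmt2 (X59736mRNA_g_at), the mitochondrial creatine kinase of striated muscle, was at 14.54, 15.34, 14.27, 15.35 and 15.22 in diabetic and 16.81, 15.87, 16.54, 15.80 and 16.70 in treated diabetic arrays. Normal arrays measured 16.18, 16.11, 16.79, 16.33 and 16.39 and treated normal arrays 15.72, 15.44, 15.51, 16.14 and 13.92. Treated diabetic arrays lay above all diabetic arrays, and 1 treated normal array overlapped the normal ones. The effects were 1.40 ± 0.36 in diabetic and -1.01 ± 0.36 in normal muscle (interaction 2.42 ± 0.50, adjusted p = 0.0798). A second Ckmt2 probe set, X59736mRNA_at, chosen after its values were seen, gave 2.27 ± 0.57.

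Ndufb9 (rc_AI171542_at), a subunit of respiratory complex I, measured 15.25, 15.05, 14.98, 15.19 and 15.19 in diabetic and 16.70, 15.99, 16.09, 16.18 and 16.38 in treated diabetic arrays, which did not overlap. It measured 15.99, 15.69, 16.43, 15.13 and 15.90 in normal and 16.10, 15.53, 15.35, 15.38 and 15.004 in treated normal arrays, which did. The interaction was 1.49 ± 0.36 (adjusted p = 0.184), with effects of 1.14 and -0.35. Ndufb2, another complex I subunit, had an interaction of 1.55 ± 0.39 (effects 0.96 and -0.59), and Mdh1, the cytosolic malate dehydrogenase, one of 1.67 ± 0.42 (effects 0.84 and -0.83). Pgam2, the muscle phosphoglycerate mutase of glycolysis, had an interaction of 2.06 ± 0.51 (effects 1.21 and -0.84). The adjusted p of these 3 genes was 0.184 each.

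Oxidative phosphorylation was the list with the most members past an unadjusted p of 0.05. Of 37 measured genes, 23 were higher and 0 lower, against 4.24% of all genes higher. The median interaction was 1.08, and 32 of the 37 had a higher level in treated diabetic and a lower level in treated normal muscle than in the untreated group of the same kind. Among all 4736 genes 972 had that pattern. Median effects were 0.71 in diabetic and -0.33 in normal muscle. Slc25a3, the mitochondrial phosphate carrier, had an interaction of 1.26 ± 0.33, and Cox6b1, a subunit of cytochrome c oxidase, one of 1.57 ± 0.42 (adjusted p = 0.184 and 0.191). No member passed over all probe sets. The list's score was -0.50 ± 0.18 in diabetic, 0.08 ± 0.20 in treated diabetic, 0.00 ± 0.33 in normal and -0.30 ± 0.35 in treated normal muscle (SD, n = 5 each), and all 5 treated diabetic arrays lay above the 5 diabetic arrays.

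The values of this list were smaller without the arrays of high Gapdh ratio and under quantile normalization. Normal replicate 3 and treated diabetic replicate 1, both of high Gapdh ratio, had the highest scores of their groups, 0.50 and 0.38. The median interaction of oxidative phosphorylation without those 2 arrays and normal replicate 1, the third of high ratio, was 0.76, with 11 members higher and 0 lower. With both 3'/5' ratios as covariates it was 0.69 with 9 higher, and with quantile normalization 0.52 with 10 higher. Without diabetic replicates 1 and 3 it was 0.92 with 18 higher. In these 4 settings 0 members were lower, and 3.74%, 2.74%, 6.19% and 3.00% of all genes were higher.

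Genes of the tricarboxylic acid cycle and of pyruvate entry lay on the same side. Of 15 measured genes 7 were higher and 0 lower (unadjusted p under 0.05), against 4.24% of all genes higher, with a median interaction of 0.72 and median effects of 0.49 and -0.22. Mdh2, the mitochondrial malate dehydrogenase, had an interaction of 1.28 ± 0.38 and Suclg1, a subunit of succinyl-CoA ligase, one of 1.12 ± 0.34 (adjusted p = 0.225 and 0.235). The median of this list without the 3 arrays of high ratio was 0.95 with 8 higher, and with both ratios as covariates 0.94 with 8 higher. It was 0.64 with 6 higher under quantile normalization and 0.59 with 5 higher without diabetic replicates 1 and 3. In these 4 settings 3.74%, 2.74%, 6.19% and 3.00% of all genes were higher. Diabetic replicates 1 and 3 had the lowest scores of their group, -1.16 and -1.18, against -0.68 to -0.50 in the other 3. The list's score was -0.82 ± 0.32 in diabetic, -0.39 ± 0.15 in treated diabetic, 0.00 ± 0.26 in normal and -0.24 ± 0.25 in treated normal muscle.

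**Figure D3:**
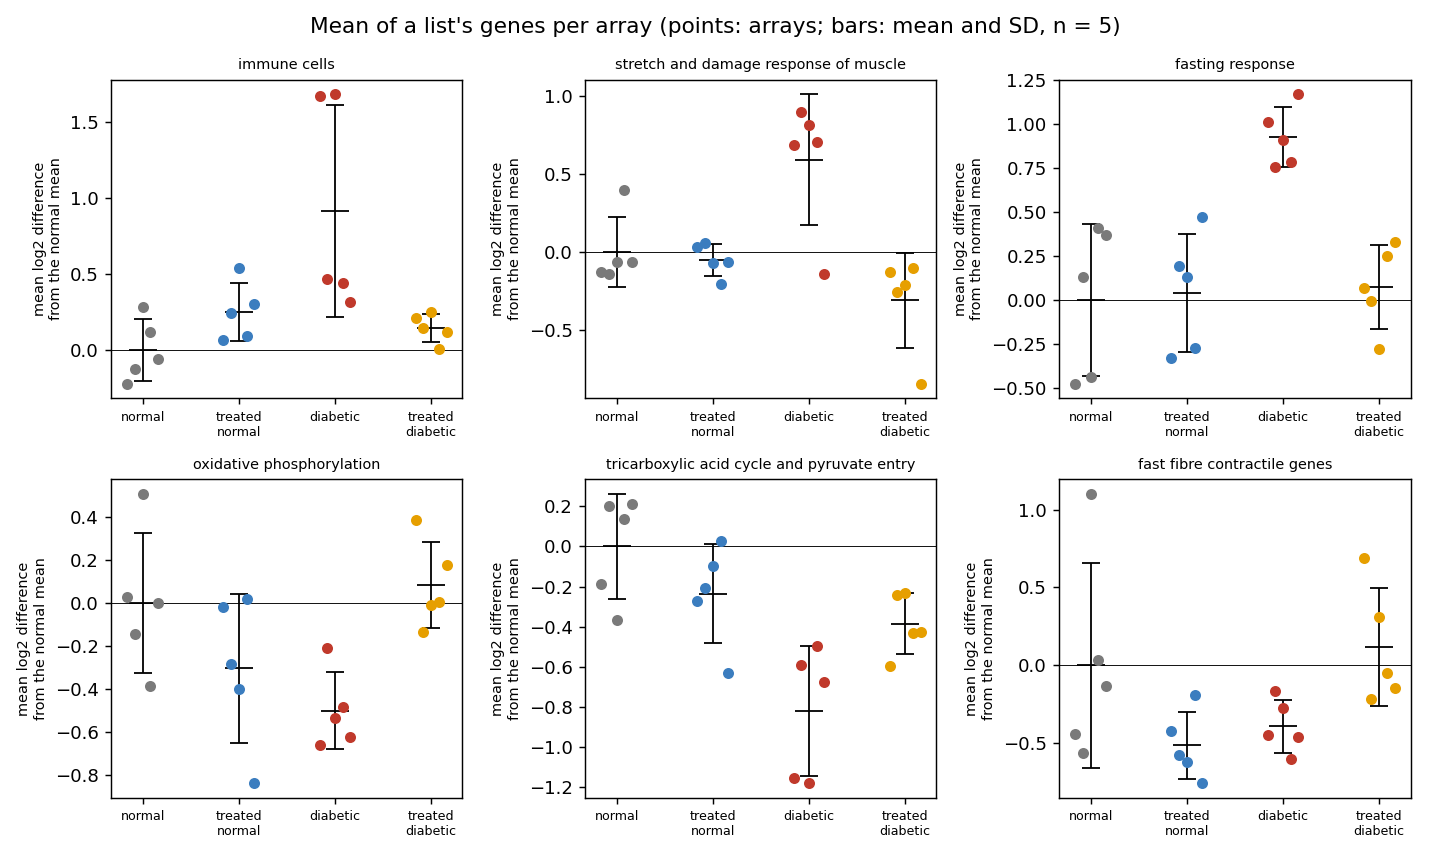
Mean over the genes of 6 lists on each array, as the log2 distance from the normal group's mean (vertical axis), with the 4 groups along the horizontal axis; points are arrays and bars the mean and SD (n = 5). Immune, stretch and fasting lists have their highest mean in untreated diabetic muscle, oxidative phosphorylation and tricarboxylic acid cycle their lowest, and diabetic replicates 1 and 3 stand at 1.67 and 1.68 in the immune panel.

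Contractile genes of fast and slow fibres differed in form. In the fast fibre list 9 of 13 measured genes were higher and 0 lower (unadjusted p under 0.05), against 4.24% of all genes higher, with a median interaction of 1.28 and median effects of 0.68 in diabetic and -0.60 in normal muscle. Pvalb, the calcium buffer parvalbumin, had an interaction of 1.67 ± 0.51, Myh4, the fastest adult myosin heavy chain, one of 1.45 ± 0.47, and Tnni2, the fast troponin I, one of 1.33 ± 0.43 (adjusted p from 0.235 to 0.256). The score was highest in normal replicate 3, at 1.10, and in treated diabetic replicate 1, at 0.69, both of high Gapdh ratio. Without the 3 arrays of high Gapdh ratio the median interaction of the fast fibre list was 0.76 with 5 higher, with both ratios as covariates 0.61 with 0 higher, and with quantile normalization 0.06 with 1 higher. In these 3 settings 3.74%, 2.74% and 6.19% of all genes were higher. The skeletal muscle markers, which share genes with this list, had a median of 1.12 with 8 of 14 higher, 0.73 with 2 higher without the 3 arrays of high ratio, 0.56 with 0 higher with both ratios as covariates and 0.20 with 2 higher under quantile normalization.

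Slow fibre genes had negative effects in both kinds of rat, -1.36 in diabetic and -0.61 in normal muscle on the median, with a median interaction of -0.38. Of 9 measured genes 2 were lower and 0 higher at an unadjusted p under 0.05, where 6.12% of all genes were lower. The median turned on single arrays: it was -0.14 without treated diabetic replicate 2 and -0.67 without treated diabetic replicate 1. It was -0.73 without the 3 arrays of high ratio, -1.03 with both ratios as covariates and -0.71 under quantile normalization. Tpm3, the slow tropomyosin, had effects of -1.36 and 0.12 (interaction -1.48 ± 0.44, adjusted p = 0.230), and with the probe sets of the gene averaged the interaction was 0.07. Casq2, the calsequestrin of slow and cardiac muscle, had effects of -1.70 and -0.28 (interaction -1.42 ± 0.73, adjusted p = 0.525), and -0.53 was its interaction without the 3 arrays of high ratio. The score in treated diabetic muscle ran from -2.02 to 0.13, the widest spread of the 4 groups.

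**Figure D4:**
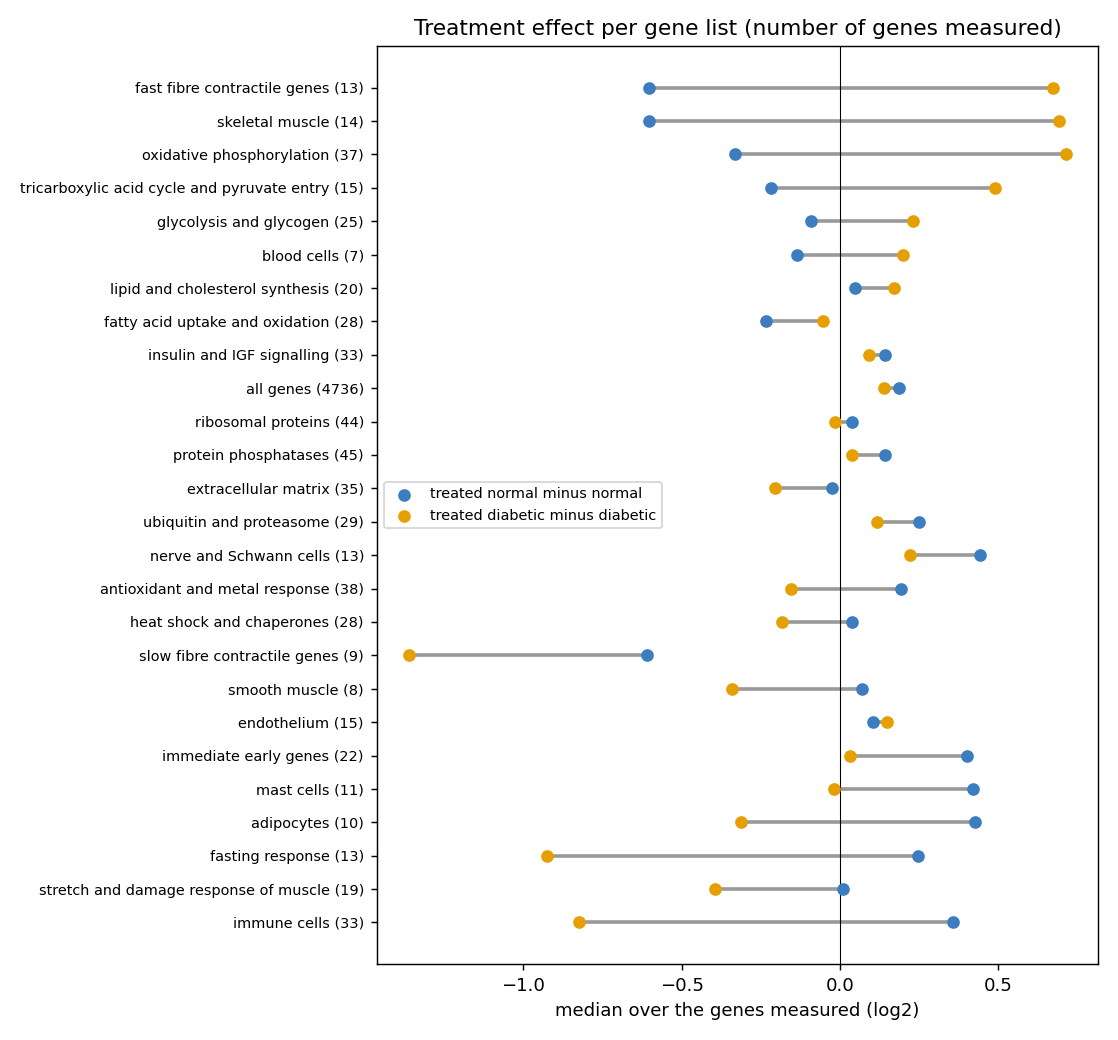
Median treatment effect (log2, horizontal axis) over the measured genes of 25 lists and of all 4736 genes, in diabetic muscle (orange) and in normal muscle (blue), ordered by the median interaction; numbers in brackets are genes measured. Fast fibre, skeletal muscle and oxidative phosphorylation lists have a positive median in diabetic and a negative one in normal muscle, immune and fasting lists the reverse, and slow fibre genes are negative in both.

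Fuel genes that insulin and fasting control did not share a direction. Fasting-response genes had a median interaction of -0.83 over 13 genes, with 3 lower and 0 higher at an unadjusted p under 0.05, where 6.12% of all genes were lower. Gadd45a, a growth arrest gene of atrophying muscle, had an interaction of -1.83 ± 0.64, and Cdkn1a, a cell cycle inhibitor, one of -1.54 ± 0.66 (adjusted p = 0.302 and 0.438). Cebpd (M65149_at), a transcription factor induced by glucocorticoids, had one of -1.30 ± 0.47 (adjusted p = 0.319). The list's score was 0.93 ± 0.17 in diabetic, 0.07 ± 0.24 in treated diabetic, 0.00 ± 0.43 in normal and 0.04 ± 0.34 in treated normal muscle, and all 5 diabetic arrays stood above the 15 others. Without the 3 arrays of high Gapdh ratio the median was -0.49 with 1 lower, and without diabetic replicates 1 and 3 it was -0.59 with 1 lower. That 1 gene is 7.69% of the list, near the 6.21% and 4.58% of all genes that were lower in these settings.

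Pdk4, the kinase that shuts pyruvate dehydrogenase when fat is burned, could not be settled, because the normal arrays disagreed. They were at 6.08, 13.32, 5.58, 11.82 and 11.23, and the treated normal arrays at 8.40, 9.14, 9.23, 9.40 and 10.28. Diabetic arrays were at 10.20, 12.22, 9.96, 12.15 and 9.33 and treated diabetic arrays at 6.66, 8.998, 6.22, 8.72 and 6.34. Treated diabetic arrays lay below all diabetic arrays (-3.38 ± 1.15), and the interaction was -3.06 ± 1.63 (adjusted p = 0.547). The 2 low normal arrays, replicates 1 and 3, are those of high Gapdh ratio. With the 3 arrays of high ratio left out, the interaction of Pdk4 was -0.36. Ucp3, the uncoupling protein of muscle mitochondria, had nearly equal effects of -1.64 ± 0.66 in diabetic and -1.65 ± 0.66 in normal muscle, with an interaction of 0.01 ± 0.94, which was 1.25 without the 3 arrays of high ratio.

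Fatty acid uptake and oxidation genes had a median interaction of 0.08 over 28 genes, with 3 higher and 0 lower, where 4.24% of all genes were higher. Without diabetic replicates 1 and 3 the direction turned, to a median of -0.092 with 0 higher and 2 lower, where 4.58% of all genes were lower. Acsl6, a long-chain acyl-CoA synthetase, had one of 1.38 ± 0.55, Acads, the short-chain acyl-CoA dehydrogenase, 1.27 ± 0.59, and Fabp3, the fatty acid carrier of muscle, 1.15 ± 0.55. The carnitine palmitoyltransferases Cpt1a and Cpt1b, which admit fatty acids to mitochondria, had interactions of -0.94 ± 0.51 and -0.82 ± 0.50. Cd36, the fatty acid transporter, had -1.90 ± 1.11, the lipase Lpl -0.03 ± 0.50 and the desaturase Scd 1.09 ± 1.41. With the 3 arrays of high Gapdh ratio left out, the interaction was 0.70 for Fabp3, -0.42 for Cpt1b, -1.14 for Cd36 and -0.47 for Lpl. Adjusted p for the 8 genes lay between 0.375 and 0.993.

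Insulin and IGF signalling genes had a median interaction of 0.01 over 33 genes, 2 higher and 0 lower (unadjusted p under 0.05), where 4.24% of all genes were higher. Irs1, the substrate that carries the signal of the insulin receptor, had effects of 0.66 and -0.66 (interaction 1.32 ± 0.50, adjusted p = 0.352). Lnpep, the insulin-regulated aminopeptidase of glucose transporter vesicles, had effects of 1.37 and 0.05 (interaction 1.32 ± 0.53, adjusted p = 0.383). Among the diabetic arrays Lnpep was not dim in only 1, so its effect there rests in part on background levels. With a pseudocount 16 times as large its interaction was 0.68. The glucose transporter that insulin recruits, Slc2a4, had an interaction of 0.66 ± 0.42, the receptor Insr -1.03 ± 0.52, the adaptor Grb14 0.55 ± 0.36 and the hexokinase Hk2 0.51 ± 0.67. The list's median changed sign in 15 of 33 alternative settings. With the 3 arrays of high Gapdh ratio left out it was 0.18, and Hk2 had an interaction of -0.084.

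The protein phosphatases, among them the tyrosine phosphatases that vanadium compounds inhibit as enzymes, had a median interaction of -0.10 over 45 genes, with 2 lower and 1 higher, where 6.12% of all genes were lower and 4.24% higher. The median was -0.19 without the 3 arrays of high ratio and 0.0078 under quantile normalization. Ptpn1, the phosphatase of the insulin receptor, had effects of 0.21 ± 0.25 in diabetic and 0.49 ± 0.25 in normal muscle (interaction -0.29 ± 0.36, adjusted p = 0.843). Ptpn6, a phosphatase of blood cells, had an interaction of -1.78 ± 0.89 (adjusted p = 0.520). It was at 11.39 and 11.47 in diabetic replicates 1 and 3, and at 9.205, 9.211 and 9.239 in diabetic replicates 2, 4 and 5. Ppp2r2a, a regulatory subunit of phosphatase 2A, had an interaction of -1.29 ± 0.54 (adjusted p = 0.414), or -0.84 when the 3 arrays of high ratio were left out. Lipid and cholesterol synthesis had a median of 0.12 over 20 genes, with 2 higher and 0 lower, where 4.24% of all genes were higher. Under quantile normalization it was 0.34 with 3 higher, where 6.19% of all genes were higher. Mvk (M29472_at), the mevalonate kinase of that pathway, had effects of 1.22 and -0.80 (interaction 2.02 ± 0.45, adjusted p = 0.111), and its dimmer probe set, rc_AA924198_s_at, gave 0.42 ± 0.55. M29472_at was not dim in all 5 normal and all 5 treated diabetic arrays, but in only 1 diabetic and 1 treated normal array. Its effects therefore rest in part on background levels, and with a pseudocount 16 times as large its interaction was 1.30.

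Genes that answer metals, oxidants and early signals had negative medians. In the antioxidant and metal response list 6 of 38 measured genes were lower and 1 higher, where 6.12% of all genes were lower and 4.24% higher. The list's median was -0.36, and -0.24 without normal replicate 4. The glutathione transferases Gstm2 and Gstm5 had interactions of -2.88 ± 0.73 and -2.75 ± 0.78, and the secreted glutathione peroxidase Gpx3 one of -1.81 ± 0.53 (adjusted p from 0.184 to 0.225). Gstm5 was at 6.98 in treated diabetic replicate 5 and at 10.68 to 11.35 in the other treated diabetic arrays. Without that array its interaction was -1.95. Gstm2 had effects of -1.29 in diabetic and 1.59 in normal muscle. Members of the Gstm family are near-identical in sequence, so a probe set may take signal from several. Hmox1, heme oxygenase, had an interaction of -0.69 ± 0.36. Alas1, the first enzyme of heme synthesis, had effects of 1.07 and -0.88 (interaction 1.95 ± 0.59, adjusted p = 0.235). Immediate early genes had a median of -0.46 over 22 genes, with 3 lower and 0 higher, where 6.12% of all genes were lower, and median effects of 0.03 in diabetic and 0.40 in normal muscle. It was -0.28 without the 3 arrays of high ratio and -0.27 without treated normal replicate 3. Fos and Egr1 had interactions of -0.63 ± 0.47 and -0.51 ± 0.47, and Nr4a1, an orphan nuclear receptor of the early response, 0.86 ± 0.46 with effects of 1.51 and 0.64.

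The other members of the 24 were Bid, Hnrnpa3, Camk2n1, Aldoc and Nr0b2. Bid, a trigger of apoptosis, had effects of -0.94 and 1.499 (interaction -2.43 ± 0.56), and the RNA-binding protein Hnrnpa3 -0.53 and 1.32 (interaction -1.85 ± 0.47). Camk2n1, which inhibits the kinase CaMKII, had effects of -1.92 and 0.33 (interaction -2.24 ± 0.52), and Aldoc, an aldolase, -2.06 and 0.84 (interaction -2.90 ± 0.69). Aldoc belongs to the glycolysis and glycogen list, as Pgam2 does, and the signs of their interactions are opposite. Nr0b2, a nuclear receptor that represses transcription, had effects of 0.92 and -1.41 (interaction 2.32 ± 0.52). In Bid, Hnrnpa3 and Nr0b2 the larger effect was that in normal muscle. Adjusted p for the 5 genes lay between 0.111 and 0.184. Camk2n1 was dim in all 5 normal, all 5 treated normal and 4 of 5 treated diabetic arrays, and Aldoc in all 5 normal, 3 of 5 treated normal and all 5 treated diabetic arrays, so the size of their effects rests on background levels. Other probe sets gave -0.37 ± 0.50 for Camk2n1, -0.64 ± 1.01 for Aldoc, and -0.37 ± 0.44 and -0.13 ± 0.61 for Nr0b2, both opposite in sign to its named probe set.

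Glycolysis and glycogen had a median interaction of 0.37 over 25 genes with 6 higher and 2 lower, against -0.06 over all genes with 4.24% higher and 6.12% lower. Pgam2 is among the higher and Aldoc among the lower. The median was 0.12 without normal replicate 2, 0.20 with 3 higher and 1 lower under quantile normalization and 0.16 with 5 higher and 1 lower without diabetic replicates 1 and 3.

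Heat shock and chaperone genes had a median of -0.36 over 28 with 3 higher and 1 lower, and -0.23 without the 3 arrays of high ratio. Ubiquitin and proteasome genes had a median of -0.15 over 29 with 1 higher and 3 lower, which was -0.38 when those arrays were left out and 0.0014 without normal replicate 4. Ribosomal proteins depended most on the scaling among these 3 lists. Their counts with all arrays, 1 higher and 2 lower of 44 genes, did not exceed the shares over all genes. The median was -0.09, and under quantile normalization -0.47 with 1 higher and 9 lower, where 4.37% of all genes were lower. It was -0.32 without the 3 arrays of high ratio and 0.12 without diabetic replicates 1 and 3, and it kept its sign in 26 of 33 settings. Nedd4, a ubiquitin ligase, had effects of -1.29 and 1.29 (interaction -2.58 ± 0.69, adjusted p = 0.191).

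Among markers of other cell types, the median was -0.45 for endothelium (15 genes, 2 lower), -0.45 for smooth muscle (8 genes, 1 lower), -0.49 for mast cells (11 genes, 1 lower), -0.22 for nerve and Schwann cells (13 genes, 2 lower) and 0.31 for blood cells (7 genes, 1 lower), with 0 higher in each. Over all genes 6.12% were lower and 4.24% higher, and counts of 1 or 2 in lists of this size are too small to set against these shares. Without the 3 arrays of high ratio, the median was -0.19 for endothelium and -0.35 for nerve and Schwann cells. Single arrays moved these medians: smooth muscle ran from -0.70 without treated normal replicate 5 to -0.21 without treated diabetic replicate 5, mast cells to -0.22 without treated diabetic replicate 3, nerve and Schwann cells from -0.43 without treated diabetic replicate 1 to -0.09 without normal replicate 1, endothelium to -0.28 without normal replicate 1, and blood cells from 0.01 without treated diabetic replicate 5 to 0.74 without treated diabetic replicate 3. Of the 15 endothelium genes, 6 had an interaction above 0. The median effects of that list were 0.15 in diabetic and 0.11 in normal muscle, and single genes differed from them. Esm1, a proteoglycan secreted by endothelium, had effects of -2.08 and -0.53 (interaction -1.55 ± 0.45), and the adhesion molecule Icam1 -1.20 and 0.60 (interaction -1.80 ± 0.50). Cpa3, the carboxypeptidase of mast cells, had effects of -0.79 and 1.04 (interaction -1.83 ± 0.62). Actb, often used as a reference gene, had an interaction of -2.28 ± 0.90 (adjusted p = 0.375), with an SD of 2.04 among the treated diabetic arrays.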

How the data were processed

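Poly(A) RNA of 20 rat rear-leg muscle samples was hybridised to 1-colour Affymetrix arrays. The values are the authors' deposited intensities, 1 for each probe set of an array, from MAS5 per the submitters' processing notes, with no version stated there. Trimmed by 2% at each end, the mean intensity was 2503.4 to 2506.46 on the 20 arrays, so the authors' scaling was kept. The table has no detection calls, and the number of arrays and the signal over background limit precision. No genome build is given, so no coordinates are printed.

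Values were log2(signal + 16). A linear model of the 4 groups was fitted with lmFit and eBayes of limma 3.58.1 in R 4.3.3, to 20 arrays and 8740 probe sets, and tests were two-sided with Benjamini-Hochberg adjustment and a threshold of 0.05. The fit was tested on simulated data. Of the probe sets 7006 had 1 gene symbol, 308 several and 1426 none in the platform annotation, and only those with 1 symbol were named; 6985 symbols were found in the RefSeq table and 0 changed.

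Named genes lay above the array's 40th percentile in at least 5 arrays. They were the 24 with the smallest interaction p, up to 4 members of each list with the smallest p, and a set of genes of insulin, fuel and vanadium biology, of which Mt1 and Mt2A had no probe set of 1 symbol. For the 25 lists, each of 4736 genes was represented by its brightest probe set on average. The contrast, the named genes and the lists were chosen with earlier results of these data known. A list's score on an array is the average, over its genes, of the distance from the normal group's mean. The alternatives were a filter on dim probe sets, a pseudocount of 1 and one 16 times the size of that used, quantile normalization, a variance trend, array weights, averaged probe sets, a replicate block, the 3'/5' ratios as covariates, and arrays left out. The fit without diabetic replicates 1 and 3 was added after seeing the data.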

Additional observations from a re-analysis of the deposited data

Results flagged for a closer look

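M33648_at was flagged because the test of the difference between the treatment effects itself passed, with an interaction of -4.26 by limma (adjusted p = 0.00296).

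Single arrays far from the other 4 of their group were flagged in 11 of 208 groups of values, and chance flags about 1 in 20. Diabetic replicate 5 stood apart in 4 of them: its Ankrd1 level was 11.73 where the nearest array was at 13.99, its slow fibre score -0.56 (nearest 0.49), its stretch and damage score -0.14 (nearest 0.69) and its antioxidant and metal response score 0.39 (nearest 0.12). Treated diabetic replicate 5 had a glycolysis and glycogen score of -0.49 (nearest -0.08) and a stretch and damage score of -0.84 (nearest -0.26). Treated diabetic replicate 1 had an Ndufb2 level of 16.89 (nearest 16.12). Treated normal replicate 5 had a Pgam2 level of 13.53 (nearest 14.68), and treated normal replicate 3 an immediate early gene score of 0.66 (nearest 0.43). Normal replicate 3 had a Lyve1 level of 9.64 (nearest 8.46), and normal replicate 4 a stretch and damage score of 0.39 (nearest -0.06).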

How the results depend on the processing

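By limma, 1 probe set passed the interaction test with all 20 arrays, and also with a pseudocount of 1, quantile normalization, the Gapdh ratio or both 3'/5' ratios as covariates, or with diabetic replicates 1 and 3 left out. The count was 10 with the filter on dim probe sets, 14 with the larger pseudocount, 12 with a variance trend, 16 with array weights, 7 with the probe sets of a gene averaged, 2 with the beta-actin ratio as covariate and 0 with the 3 arrays of high Gapdh ratio left out. With the replicate block it was 6, although the labels do not say that a replicate number pairs samples across groups. Same-numbered arrays of different groups had correlations of their deviations from -0.281 to 0.616 (median 0.0701), over 0.1 in 11 of 30 pairs. Arrays of different number ran from -0.495 to 0.407 (median 0.0038), and 6 of 20 arrays correlated best with an array of their own number. Whether same-numbered arrays share a batch was not tested. Leaving out 1 array at a time gave 1 to 23, and M33648_at passed each time. Of the 109 probe sets with values in named sets, 104 kept their sign in all 33 settings. The sign turned for Ucp3 (-0.058 with the larger pseudocount, -0.27 with averaged probe sets, -0.20 without diabetic replicates 1 and 3, and -0.58 to 0.53 with 1 array left out, of which 9 turned it), Lpl (0.15 without diabetic replicates 1 and 3, and -0.24 to 0.19 with 1 array left out, of which 8 turned it), Hk2 (-0.096 with the Gapdh ratio as covariate, -0.084 without the 3 arrays of high ratio), Tpm3 (0.068 with averaged probe sets) and Psmb5 (-0.0089 with averaged probe sets). Ucp3, Lpl and Hk2 had an adjusted p of 0.853 or more with all arrays; the cause of the turns was not tested. With 5 arrays per group, the median SE of an interaction was 0.56, and dim probe sets had a larger one (0.66 among those that did not pass the filter, 0.51 among those that did).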

Other observations

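The unnamed probe set rc_AI176456_at, which the annotation pairs with several genes, came second to M33648_at by interaction p and was chosen after its values were seen. Its log2 signal was 15.92, 15.04, 16.21, 14.87 and 14.56 in diabetic and 10.83, 10.10, 11.01, 12.99 and 12.23 in treated diabetic arrays, and 11.16, 9.43, 11.01, 10.73 and 10.52 in normal and 10.99, 11.50, 11.97, 10.87 and 15.42 in treated normal arrays. Treated normal replicate 5 lay within the range of the diabetic arrays, apart from the other treated normal arrays. The treatment effects were -3.89 in diabetic and 1.58 in normal muscle (interaction -5.47 ± 0.99, limma adjusted p = 0.0555). Another unnamed probe set chosen in the same way, rc_AA859832_at, had effects of -0.66 and 1.31 (interaction -1.98 ± 0.36, limma adjusted p = 0.0555).

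Cebpd had a second probe set, rc_AI045030_s_at, chosen after its values were seen, with an interaction of -4.28 ± 1.11 where M65149_at gave -1.30 ± 0.47. It was dim in 12 of 20 arrays. Heat shock genes went in both directions, with Hspa4 at 1.69 ± 0.44 and the co-chaperone St13 at -1.77 ± 0.67 in the interaction, and so did ribosomal protein genes, with the muscle paralog Rpl3l at 1.38 ± 0.51 and Rpl11 at -1.52 ± 0.59 (limma adjusted p from 0.184 to 0.358 for these 4). Both ribosomal values leaned on treated diabetic replicate 5, where Rpl3l was at 16.62 and Rpl11 at 12.47. The other treated diabetic arrays were at 14.69 to 15.32 for Rpl3l and 14.83 to 15.46 for Rpl11. Without that array the interactions were 1.05 and -0.95.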
